A study of Mus musculus with 8 samples.

Results

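The genes described here are 10 that ERK signalling is known to switch on: Spry1, Spry2, Spry4, Spred1, Dusp4, Dusp5, Dusp6, Etv4, Etv5 and Phlda1. They were chosen by name, and each was read from the probe set (a group of array probes for a single transcript) that carries its symbol and no other, or, where there were several such probe sets, from the one with the highest mean. All 10 were found, among 19938 genes that have a probe set of their own. The study asked how a brief high-fat diet (HFD) changes adipose precursors (APs), the stromal cells of fat that can become adipocytes, compared with a standard diet (SD).

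The 4 groups were HFD viAPs, SD viAPs, HFD scAPs and SD scAPs. viAPs came from perigonadal visceral fat and scAPs from inguinal subcutaneous fat of male C57BL/6J mice aged 7 to 8 weeks, after 3 days on either diet. No mouse of these groups carried a transgene or a deletion. Cells were depleted of CD45+ and CD31+ cells on beads, retained on beads against SCA-1 and lysed without culture. There were 2 arrays per group, each with RNA pooled from 3 mice, so that the spread between arrays is one between pools, and only 2 pools per group limit the precision of every value. The labels number the arrays 1 to 8, and that number names an array below.

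ERK is the last kinase of a chain in which growth factor receptors activate Ras, Raf and MEK, and it drives cells into division. Active ERK also switches on genes whose proteins damp the same chain, so that the transcripts of these feedback genes are widely read as a trace of recent ERK activity. Sprouty and Spred proteins act near Ras and Raf, dual-specificity phosphatases (DUSPs) remove the activating phosphates from ERK itself, and Etv4 and Etv5 are ETS transcription factors induced downstream of fibroblast growth factor receptors. In adipose precursors, fibroblast growth factors, platelet-derived growth factors and insulin are known to use this chain.

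All levels are log2 of the deposited intensity, so that a difference of 1 is a 2-fold change, and levels of different genes cannot be compared because their probes differ. The precursor markers Pdgfra (11.01 to 11.56) and Cd34 (11.38 to 12.37) were high on all 8 arrays, against array medians of 5.58 to 5.75. Of 9 leukocyte genes measured, 4 were under the array median on every array, while Cd68, a macrophage gene, was above it on all 8 (6.29 to 7.84). With HFD 5 were lower in viAPs and 3 higher and 2 lower in scAPs without overlap (none passed). Among all 21789 probe sets with 1 symbol, 31.2% were lower without overlap in viAPs, and 21.7% higher and 18.8% lower in scAPs. The part of leukocytes in the member values was not tested, and the gene for SCA-1 was not analysed here. SD viAP array 4 stood apart from its label. Tbx15, a subcutaneous depot gene, was at 9.77 on this array, against 4.70 on SD viAP array 3 and 9.34 to 9.67 on the scAP arrays, and the visceral gene Tcf21 was at 5.32 on array 4, against 9.61 on array 3. The viAP change of each member is therefore also given without array 4. Endothelial markers moved with the diet in scAPs: the summed intensity of 20 such genes was 4268 and 4243 in HFD scAPs, against 2449 and 2323 in SD scAPs. In bulk RNA, a different share of a cell type and a different amount of RNA per cell cannot be told apart.

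The filter on low and flat probe sets follows that of the study. It kept 3076 probe sets, those that exceeded 7 on the log2 scale on 3 or more arrays and whose mean absolute deviation over the arrays fell in the highest tercile. Spry1, Spry2, Spry4, Spred1, Dusp5 and Dusp6 lay within it. Dusp4, Etv4 and Etv5 were never above 7, and Phlda1 was well above 7 but too flat. A gene is said to have risen or fallen where limma's p-value, adjusted over the filter, was under 0.05. The 4 genes outside the filter were adjusted over all 21789 probe sets with 1 symbol. Because the filter selects variable probe sets, and many of these rose with HFD, a count of members is read beside the share of the filter.

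The stretches before the starts of the 4 members that rose in viAPs are shown first, since they are the DNA nearest to the transcripts measured. Each is the 250 bases ahead of the start, 5′ to 3′ on the gene's own strand, taken from RefSeq (GRCm38.p6).
Dusp5 (chr19:53528895-53529144, plus strand): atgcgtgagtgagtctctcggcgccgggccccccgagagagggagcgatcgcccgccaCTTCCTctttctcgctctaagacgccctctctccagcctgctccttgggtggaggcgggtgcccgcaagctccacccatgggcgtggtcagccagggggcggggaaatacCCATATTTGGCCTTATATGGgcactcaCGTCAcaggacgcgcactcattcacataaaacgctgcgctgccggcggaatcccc
Dusp6 (chr10:99262981-99263230, plus strand): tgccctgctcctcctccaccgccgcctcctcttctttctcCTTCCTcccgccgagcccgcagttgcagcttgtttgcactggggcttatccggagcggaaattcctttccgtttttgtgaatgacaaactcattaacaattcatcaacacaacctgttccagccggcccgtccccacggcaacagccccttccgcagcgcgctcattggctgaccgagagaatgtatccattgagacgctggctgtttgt
Spry1 (chr3:37639697-37639946, plus strand): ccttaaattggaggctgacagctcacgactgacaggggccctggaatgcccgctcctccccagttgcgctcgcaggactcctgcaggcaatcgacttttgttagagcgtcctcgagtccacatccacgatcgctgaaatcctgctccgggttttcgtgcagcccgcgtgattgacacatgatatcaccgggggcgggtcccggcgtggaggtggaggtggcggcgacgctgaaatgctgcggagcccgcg
Spry2 (chr14:105896820-105897069, minus strand): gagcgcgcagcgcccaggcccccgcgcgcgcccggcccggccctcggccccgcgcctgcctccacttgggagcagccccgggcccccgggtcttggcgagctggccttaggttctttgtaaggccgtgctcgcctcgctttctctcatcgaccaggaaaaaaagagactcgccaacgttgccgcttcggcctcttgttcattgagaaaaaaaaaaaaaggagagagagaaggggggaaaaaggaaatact
Capitals mark matches, on either strand, to the letters searched: the core TGACG of the cyclic AMP response element, the AP-1 site TGANTCA, the ETS site cores CCGGAA and AGGAAG, and the CArG box, a run of A or T between CC and GG that serum response factor is known to bind. The Dusp5 stretch held 2 CArG boxes side by side, CCATATTTGG at 82 to 73 bases before the start and CCTTATATGG at 72 to 63 bases before it, on the same strand with no base between them. At least 1 CArG box was present in 1.47% of 32851 such stretches in the table, and 2 or more in 0.0183%, which is 6 stretches. Dusp5 also held TGACG on the reverse strand (55 to 51 bases before the start, found in 17.8% of all stretches) and AGGAAG on the reverse strand (192 to 187 bases before). AGGAAG, on the reverse strand again, was the single match in Dusp6 (210 to 205 bases before the start), and 29.5% of all stretches hold it. The Spry1 and Spry2 stretches held none of these letters, and AP-1 sites and CCGGAA, found in 6.75% and 12% of all stretches, were in none of the member stretches. The table listed 6 of the 10 members, with 7 stretches, and the others searched were Spred1 and the 2 starts of Etv5, which held no match. A match describes the letters only.

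With HFD, 4 of the 10 members rose in viAPs, none fell and 6 did not pass. The 4 were Spry1 (2.6-fold), Spry2 (2.27-fold), Dusp6 (2.23-fold) and Dusp5 (1.55-fold), that is 2 Sprouty genes and the 2 ERK phosphatases within the filter. In scAPs 2 members rose, Spry1 (2.25-fold) and Spry4 (1.93-fold), none fell and 8 did not pass. Of the probe sets in the filter, 60.6% rose in viAPs and 29.1% in scAPs, and 4.19% and 1.30% fell, so that 4 and 2 of the 6 members within the filter are shares near those of the filter as a whole. None of the 4 members outside the filter passed, where 4.30% of all 21789 probe sets with 1 symbol rose in viAPs and 0.00459% in scAPs. What set some members apart from the filter's middle was the size of their change. In viAPs 3 members rose at least 2-fold, against 12.5% of the filter, and in scAPs 1 did, against 3.22%. The change of Spry1 was larger than that of 96.8% of filter probe sets in viAPs and of 98.1% in scAPs, and that of Dusp6 larger than 92.8% and 95.2%, as a description of rank without a test. Dusp5 (50.1% and 55.4%) and Spred1 (40.1% and 48.4%) were near the filter's middle in both depots, while Spry2 ranked at 93.6% in viAPs and 78.7% in scAPs, and Spry4 at 28.4% and 95.5%. The median change of the 10 members was 0.59 in viAPs and 0.46 in scAPs, beside 0.63 and 0.40 over the filter and -0.05 and 0.00 over all 21789 probe sets.

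**Figure D1:**
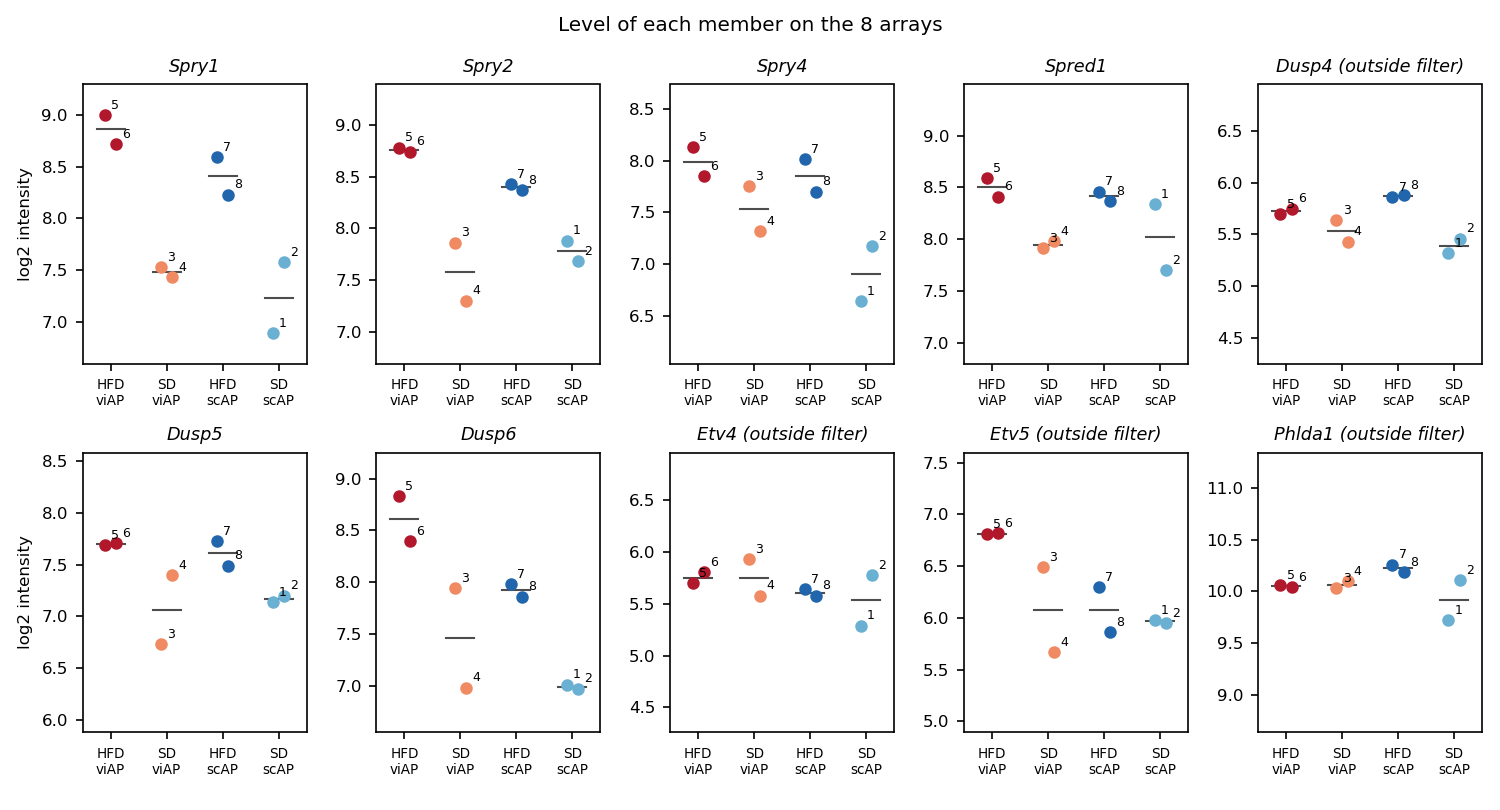
Level of each member (log2 intensity, vertical axis, all panels spanning the same number of log2 units) on the 8 arrays, by group, with array numbers beside the points and a line at each group's mean. Both HFD arrays lie above both SD arrays for 8 members in viAPs and for 8 in scAPs, Etv4 does so in neither, and SD viAP arrays 3 and 4 are far apart for Dusp5, Dusp6 and Etv5.

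Spry1 encodes a Sprouty protein that restrains signals from receptor tyrosine kinases to ERK. Its level was 9.00 and 8.72 in HFD viAPs, against 7.53 and 7.43 in SD viAPs. In scAPs it was 8.59 and 8.23 with HFD, against 6.89 and 7.58 with SD. All 4 HFD arrays were thus above all 4 SD arrays, and the groups ran in the order HFD viAP, HFD scAP, SD viAP, SD scAP, with an overlap only between the 2 SD groups. The change was 1.38 ± 0.25 (SE) in viAPs (limma, adjusted p = 0.00654) and 1.17 ± 0.25 in scAPs (adjusted p = 0.0235). Without SD viAP array 4 the viAP change was 1.33 (adjusted p = 0.0323). The viAP call was lost without HFD viAP array 5 (change 1.24, adjusted p = 0.0593). The scAP call was lost without HFD scAP array 7 or 8 or HFD viAP array 5 or 6 (adjusted p between 0.0534 and 0.123).

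Spry2, a second Sprouty gene, read 8.78 and 8.74 in HFD viAPs, against 7.86 and 7.30 in SD viAPs. The scAP arrays gave 8.43 and 8.37 with HFD, against 7.88 and 7.68 with SD. HFD viAPs were highest and HFD scAPs next, without overlap, and the 2 SD groups overlapped. The viAP change was 1.18 ± 0.19 (adjusted p = 0.00546), or 0.91 without SD viAP array 4 (adjusted p = 0.0168), and it did not pass without HFD viAP array 5 (adjusted p = 0.0537). The scAP difference of 0.62 ± 0.19 just missed the threshold (adjusted p = 0.051). It passed without SD viAP array 3 or array 4, at the same size of 0.62. These arrays enter the scAP test through the estimate of the spread that all groups share. They also enter through the filter and the adjustment over it, which were redone without them.

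Spry4, a further Sprouty gene, was the only member within the filter with a larger diet difference in scAPs than in viAPs, although the test between the depots' changes did not pass (adjusted p = 0.52). Its scAP levels were 8.01 and 7.70 with HFD, against 6.64 and 7.17 with SD. In viAPs they were 8.13 and 7.85 with HFD, against 7.75 and 7.32 with SD. Neither pair overlapped, and the lowest group was SD scAPs, below all other groups. The scAP change was 0.95 ± 0.24 (adjusted p = 0.0323), and it passed without SD viAP array 3 or 4 but not without any one of the other 6 arrays (adjusted p between 0.0619 and 0.161). The viAP difference was 0.45 ± 0.24 (adjusted p = 0.134), and 0.24 without SD viAP array 4.

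Spred1, which works with neurofibromin to switch Ras off, differed less between the diets. It was at 8.59 and 8.41 in HFD viAPs, against 7.91 and 7.98 in SD viAPs, and at 8.46 and 8.37 in HFD scAPs, against 8.34 and 7.70 in SD scAPs. SD scAP array 1 was close to the HFD scAP arrays. With only the 4 viAP arrays fitted, Spred1 passed in viAPs (adjusted p = 0.0247), and of the other members only Spry1 and Spry2 did. With all 8 arrays the differences were 0.56 ± 0.21 in viAPs (adjusted p = 0.053) and 0.39 ± 0.21 in scAPs (adjusted p = 0.186). Without SD scAP array 1 both passed, at adjusted p = 0.0109 in viAPs and 0.0253 in scAPs, where the change was then 0.71. Without SD scAP array 2 the scAP difference was 0.08 (adjusted p = 0.848), and without SD viAP array 4 the viAP difference was 0.59 (adjusted p = 0.13).

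Dusp6 is the cytoplasmic phosphatase specific for ERK and among the transcripts most often used to read ERK activity. Its level was 8.83 and 8.40 in HFD viAPs, against 7.94 and 6.98 in SD viAPs. The scAP values were 7.98 and 7.86 with HFD, against 7.01 and 6.97 with SD. On SD viAP array 4, which carried subcutaneous depot genes, Dusp6 was at the SD scAP level, and array 3 was about as high as HFD scAPs. The viAP change was 1.16 ± 0.31 (adjusted p = 0.0183). It was 0.67 without SD viAP array 4 (adjusted p = 0.0488), 1.64 without SD viAP array 3 (adjusted p = 0.00682) and 0.94 without HFD viAP array 5, where it did not pass (adjusted p = 0.121). It also did not pass without the filter (adjusted p = 0.081) or with only the 4 viAP arrays (adjusted p = 0.0909). In scAPs the difference was 0.93 ± 0.31 (adjusted p = 0.061). The 2 arrays of either scAP group were close together, but the spread was estimated from all groups, the uneven SD viAP arrays included. The scAP difference passed without SD viAP array 3 (adjusted p = 0.022) or array 4 (adjusted p = 0.0226).

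Dusp5, a nuclear phosphatase specific for ERK whose promoter stretch holds the paired CArG boxes, read 7.69 and 7.71 in HFD viAPs, against 6.73 and 7.40 in SD viAPs. In scAPs it read 7.73 and 7.49 with HFD, against 7.14 and 7.20 with SD. The HFD arrays of both depots lay above all SD arrays, with SD viAP array 4 the highest of these. The viAP change was 0.63 ± 0.22 (adjusted p = 0.0423), about the median of the filter. This call held only where SD viAP array 4 was left out (change 0.97, adjusted p = 0.0168), and leaving out any other array ended it (adjusted p between 0.0641 and 0.279, change 0.30 without SD viAP array 3), as did removing the filter (adjusted p = 0.138). The scAP difference was 0.44 ± 0.22 (adjusted p = 0.164).

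Dusp4, a nuclear phosphatase that acts on several MAP kinases, was close to the array medians. It was at 5.70 and 5.75 in HFD viAPs, against 5.64 and 5.43 in SD viAPs, and at 5.86 and 5.88 in HFD scAPs, against 5.32 and 5.46 in SD scAPs. Each HFD pair lay above its SD pair without overlap, by 0.19 ± 0.13 in viAPs (adjusted p = 0.365) and 0.48 ± 0.13 in scAPs (adjusted p = 0.164, over all probe sets with 1 symbol). Without SD viAP array 4 the viAP difference was 0.08.

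Of the transcription factors, Etv5 was read by a pair of probe sets. The one with the higher mean was at 6.81 and 6.82 in HFD viAPs, against 6.49 and 5.67 in SD viAPs, and at 6.30 and 5.86 in HFD scAPs, against 5.98 and 5.95 in SD scAPs. The second was at 6.89 and 6.54 in HFD viAPs, against 6.30 and 6.02 in SD viAPs, and at 6.11 and 5.98 in HFD scAPs, against 5.75 and 5.81 in SD scAPs. Both placed the HFD viAP arrays above all others. The viAP differences were 0.73 ± 0.28 (adjusted p = 0.159) and 0.55 ± 0.17 (adjusted p = 0.102), and the first was 0.32 without SD viAP array 4. In scAPs they were 0.12 ± 0.28 (adjusted p = 0.887) and 0.26 ± 0.17 (adjusted p = 0.519). Etv4 was at 5.70 and 5.81 in HFD viAPs, against 5.93 and 5.58 in SD viAPs, and at 5.64 and 5.58 in HFD scAPs, against 5.29 and 5.78 in SD scAPs. These ranges overlapped in both depots, the scAP difference was 0.08 ± 0.20, and the viAP difference was 0.00 ± 0.20 and turned to 0.14 with arrays centred on their medians and 0.13 after a second quantile normalization, and was -0.18 without SD viAP array 4.

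Phlda1, which encodes a small protein with a pleckstrin homology-like domain and is induced by ERK, was high and flat. Its levels were 10.06 and 10.04 in HFD viAPs, against 10.03 and 10.10 in SD viAPs, and 10.26 and 10.19 in HFD scAPs, against 9.72 and 10.11 in SD scAPs. The viAP difference was -0.02 ± 0.15 (0.12 with arrays centred on their medians, -0.35 after a second quantile normalization and 0.01 without SD viAP array 4). In scAPs it was 0.30 ± 0.15 (adjusted p = 0.408), and its size was set by SD scAP array 1, without which it was 0.11.

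Across the 10 members, the HFD pair lay above the SD pair without overlap for 8 in viAPs and for 8 in scAPs. In the filter this held for 78.7% of probe sets in viAPs and 62.3% in scAPs, and among all 21789 probe sets for 28.9% and 21.7%. Without SD viAP array 4, 4 members passed in viAPs and 5 in scAPs, where 43% and 36.7% of the filter rose. Without HFD viAP array 5 none passed in either depot, where 6.55% of the filter rose in viAPs and 7.76% in scAPs.

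**Figure D2:**
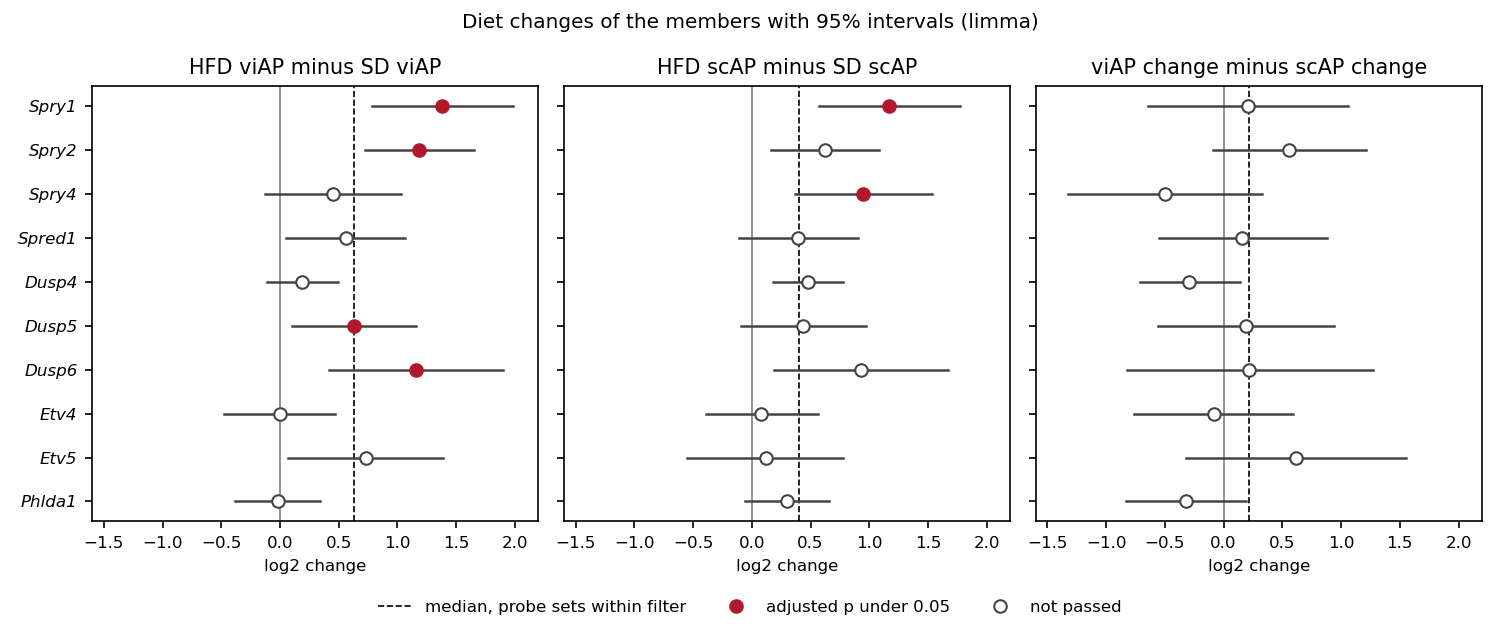
Diet change of each member (log2, horizontal axis, with 95% intervals from limma) in viAPs, in scAPs, and the viAP change minus the scAP change. Filled points passed at an adjusted p under 0.05 (Spry1, Spry2, Dusp5 and Dusp6 in viAPs, Spry1 and Spry4 in scAPs, none for the difference), and the dashed line is the median of the probe sets within the filter.

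The viAP and scAP changes themselves were then compared. For none of the 10 members did the difference between them pass (smallest adjusted p = 0.431, for Spry2, and no unadjusted p under 0.05), so that calls in 1 depot alone do not show a response particular to it. By limma the difference, viAP change minus scAP change, was 0.56 for Spry2 (95% interval -0.09 to 1.21), 0.21 for Spry1 (-0.64 to 1.06), 0.22 for Dusp6 (-0.82 to 1.27) and -0.50 for Spry4 (-1.32 to 0.33). All of these intervals hold differences of either sign. Without SD viAP array 4 the differences were 0.28 for Spry2, 0.16 for Spry1, -0.26 for Dusp6 and -0.71 for Spry4. Within the filter 0% of the 3076 probe sets passed this test.

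Because no difference between depots passed, the mean of the viAP and scAP changes was tested too, a contrast added after the values had been seen. Here 6 members rose, which are the 6 within the filter, beside 65.9% of the filter, of which 5.33% fell. The mean change was 1.27 for Spry1 (adjusted p = 0.00199), 1.04 for Dusp6 (0.00615), 0.90 for Spry2 (0.00241), 0.70 for Spry4 (0.0108), 0.54 for Dusp5 (0.0203) and 0.47 for Spred1 (0.0262). Of the others, Dusp4 came closest (0.34, adjusted p = 0.0582). Spry1, Spry2 and Dusp6 passed under every one of the 8 omissions of an array, Spry4 under 7, Dusp5 under 2 and Spred1 under 1, and without HFD viAP array 5 the count was 3.

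**Figure D3:**
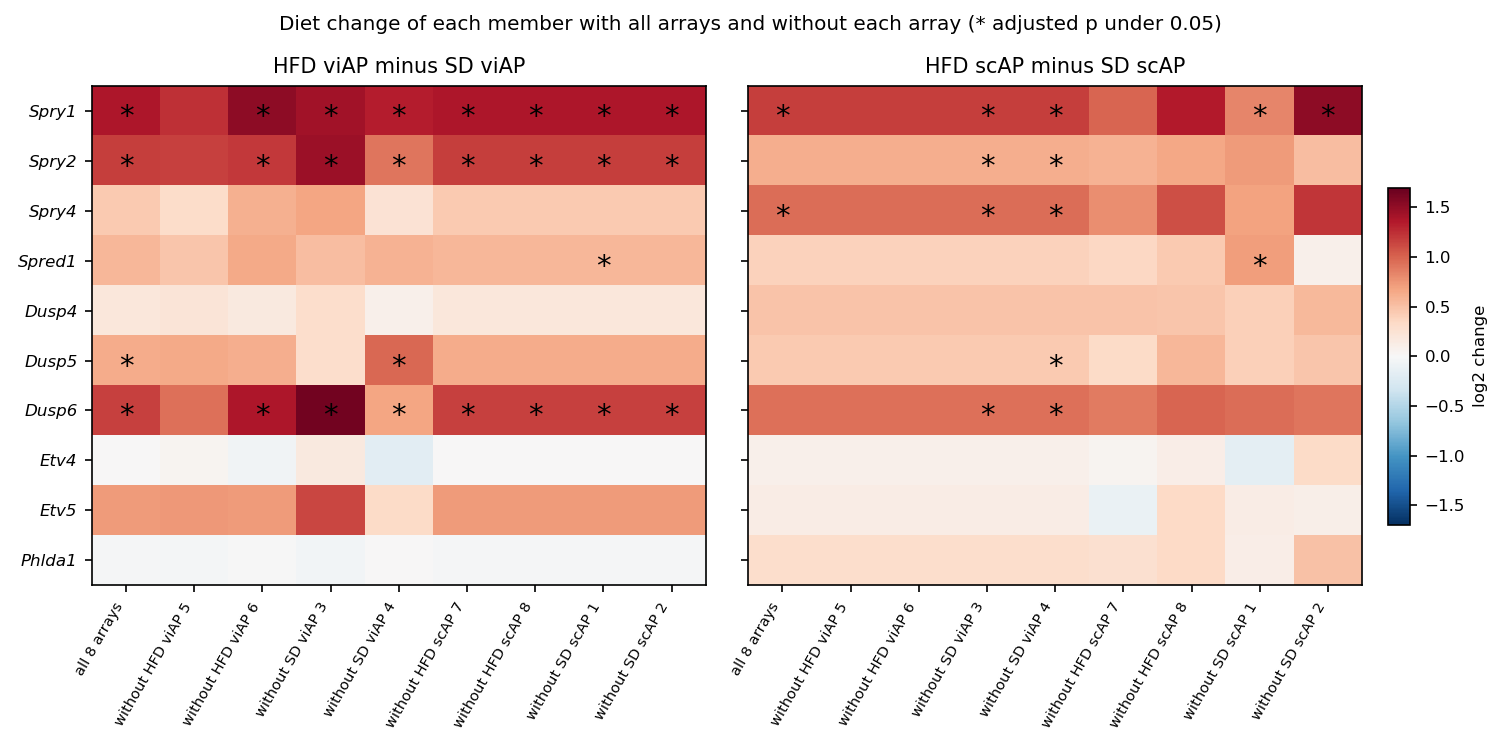
Diet change of each member (colour, log2) with all 8 arrays and with each array left out in turn, in viAPs and scAPs, with an asterisk at an adjusted p under 0.05. Spry1, Spry2 and Dusp6 in viAPs lose their asterisks without HFD viAP array 5, Dusp5 in viAPs keeps it only without SD viAP array 4, and changes in scAPs gain asterisks where SD viAP array 3 or 4 is left out.

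Between depots on the same diet no member passed, beside 0% of the filter on SD, and 1.79% higher and 0.780% lower in viAPs on HFD. On SD, Spry4 was the sole member without overlap, higher in SD viAPs than in SD scAPs by 0.63 ± 0.24 (adjusted p = 0.18), where 13.8% of the filter and 16.9% of all probe sets with 1 symbol were higher without overlap. The difference of Dusp6 was 0.47 ± 0.31 (adjusted p = 0.348), and without SD viAP array 4 it was 0.95 and passed (adjusted p = 0.0453). On HFD, viAPs lay above scAPs without overlap for Spry1 (by 0.45), Spry2 (0.36), Dusp6 (0.70), Etv4 (0.14) and Etv5 (0.73), and below them for Dusp4 (-0.14) and Phlda1 (-0.17). These are 5 higher and 2 lower of 10, beside 39.5% higher and 27.1% lower in the filter and 20.3% and 20.0% among all probe sets with 1 symbol. The smallest adjusted p among them was 0.235, for Dusp6. These contrasts share their arrays with the diet comparisons.

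Markers of other cells were read beside these values. In scAPs 17 of the 20 endothelial genes were higher with HFD without overlap (median change 0.98, 2 passed), with Cdh5 at 8.88 and 8.74 in HFD scAPs, against 6.95 and 7.01 in SD scAPs, and Pecam1 at 7.78 and 7.70, against 6.25 and 6.38. In viAPs 3 of the 20 were higher (Tek, Eng and Erg) and 10 lower without overlap (median change -0.27). Among all 21789 probe sets with 1 symbol, 28.9% were higher and 31.2% lower without overlap in viAPs, and 21.7% and 18.8% in scAPs. The endothelial genes summed to 2875 and 2713 in HFD viAPs, against 2228 and 2186 in SD viAPs. Eng (change 0.93) and Tek (0.69) had the highest levels of the 20 in viAPs and weigh most in these sums. Of the 20 endothelial genes, 1 was below the array median on every array. Sprouty and DUSP genes are also known to be active in endothelium, and the part of these cells in the scAP values was not tested. The 7 mature adipocyte markers measured summed to 638 and 567 in HFD viAPs, against 751 and 1103 in SD viAPs, and to 1177 and 1309 in HFD scAPs, against 813 and 1094 in SD scAPs. Fabp4 makes up much of these sums: in viAPs none of the 7 was higher and 4 were lower without overlap (median change -0.58, 1 passed), and in scAPs Fabp4 (0.75) and Pck1 were higher and 4 were lower (median change -0.25, none passed). Of 8 pericyte and smooth muscle genes, 3 were higher and 2 lower without overlap in viAPs (1 passed, Abcc9, -2.09). Abcc9 was at 8.97 on SD viAP array 4, against 7.17 on array 3. In scAPs 4 were higher and 1 lower (none passed). The 6 mesothelial genes summed to 765 and 904 in HFD viAPs, against 890 and 325 in SD viAPs (none passed). The part of adipocytes, pericytes and mesothelium in the member values was not tested.

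Other genes around ERK were counted from lists, which were chosen with earlier results of these data known. Each count is read beside the 60.6% of the filter that rose in viAPs and the 29.1% in scAPs. The 3 other Sprouty and Spred genes, Spry3, Spred2 and Spred3, did not pass in either depot, with viAP differences of 0.06 to 0.15. Of 8 other MAP kinase phosphatases, the 2 within the filter rose in both depots: Dusp10, known to act on JNK and p38, by 0.86 in viAPs (adjusted p = 0.0168) and 1.00 in scAPs (0.0239), and Dusp16, known to act on JNK, by 0.81 (0.00669) and 0.58 (0.0323). Dusp1, the phosphatase of immediate early responses, did not pass, at 13.17 and 13.08 in HFD viAPs, against 13.09 and 12.71 in SD viAPs.

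Of 16 other known ERK outputs, 8 lay within the filter, 6 rose in viAPs and 3 in scAPs, and none fell. The list's median was 0.30 in viAPs and 0.21 in scAPs. Over its genes above 7 it was 0.43 and 0.21, beside 0.31 and 0.18 over all genes above 7. In viAPs the largest changes were those of Emp1, an epithelial membrane protein (1.18, adjusted p = 0.00339), Fosl1, an AP-1 subunit (1.05, 0.00427), Lif, a cytokine (1.05, 0.0185, or 0.61 without SD viAP array 4, adjusted p = 0.0465), and Myc (0.70, 0.00728). In scAPs they were those of Emp1 (0.95, 0.0141), Plaur, the urokinase receptor (0.85, 0.0141), and Myc (0.56, 0.0276). Fos and Egr1, immediate early genes of the same chain, did not pass: Fos was at 12.49 and 12.40 in HFD viAPs, against 12.78 and 12.66 in SD viAPs, and Egr1 at 12.59 and 12.45, against 12.61 and 12.66. Both HFD viAP arrays were thus below both SD viAP arrays for either gene, with differences of -0.28 for Fos (adjusted p = 0.203) and -0.11 for Egr1 (0.569). Among all 21789 probe sets with 1 symbol, 31.2% were lower in viAPs in this way. Of the same gene family, Egr2 was higher without overlap in viAPs (0.17) and Egr3 lower (-0.27), and neither passed. In scAPs Fos differed by 0.06 and Egr1 by 0.20, and neither passed.

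Of 22 measured genes of the chain itself, 9 lay within the filter. All 9 of these rose in viAPs and 4 in scAPs, and none fell. Gab2, a docking protein of growth factor receptors, changed by 0.99 in viAPs (adjusted p = 0.00441) and 0.70 in scAPs (0.0212). Ptpn11, the phosphatase SHP2 that Ras activation needs, changed by 0.88 (0.00669) and 0.59 (0.0387). Braf changed by 0.58 in viAPs (0.0106) and 0.58 in scAPs (0.0239), and Rps6ka3 by 0.71 (0.011) and 0.52 (0.0498). The viAP list also held Nf1 (0.92, adjusted p = 0.00889) and Rasa1 (0.92, 0.0168, or 0.81 without SD viAP array 4, where it did not pass, adjusted p = 0.0826), which both switch Ras off, so that activators and inhibitors of Ras rose side by side. The list's median was 0.48 in viAPs and 0.33 in scAPs. Over its genes above 7 it was 0.49 and 0.35, beside 0.31 and 0.18 over all genes above 7.

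Of 23 growth factor receptors and co-receptors, mostly receptor tyrosine kinases, 4 lay within the filter. These 4 rose in viAPs and 3 of them in scAPs, and none fell. Ret, the receptor for ligands of the GDNF family, had the largest change of all listed genes. It was at 8.93 and 8.98 in HFD viAPs, against 6.86 and 6.49 in SD viAPs (2.28, adjusted p = 0.00324), and at 8.55 and 7.90 in HFD scAPs, against 6.19 and 6.00 in SD scAPs (2.13, adjusted p = 0.0141). Pdgfrb changed by 0.77 in viAPs (adjusted p = 0.00792) and 0.88 in scAPs (0.0158), and Fgfr1 by 0.65 (0.00654) and 0.47 (0.0312). Tek, listed as an endothelial marker, rose in viAPs (0.69, 0.00962) and was at 8.97 to 10.23 on all 8 arrays. Kdr and Flt1, listed likewise, were far lower in viAPs and did not pass there (0.02 and -0.15), while the endothelial marker Eng did (0.93, 0.00546). Of the 20 endothelial genes, 3 were higher and 10 lower without overlap in viAPs. In scAPs Kdr (1.52) and Flt1 (1.00) were higher with HFD without overlap, and neither passed. The part of endothelial cells in the Tek values was not tested.

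Of 26 measured ligands, 9 lay within the filter, 1 rose and 1 fell in viAPs, and 1 rose in scAPs. Vegfc, a lymphatic growth factor, was at 8.77 and 8.39 in HFD viAPs, against 7.48 and 6.78 in SD viAPs (1.45, adjusted p = 0.00622). Fgf10, known to be needed for the formation of white fat, fell by 0.65 in HFD viAPs (adjusted p = 0.0384), with 7.34 and 7.15, against 7.58 and 8.19 in SD viAPs, where array 4 was at the level of scAPs. Without array 4 the Fgf10 difference was -0.34 and did not pass (adjusted p = 0.158). Hbegf, a ligand of the epidermal growth factor receptor, changed by 0.68 in scAPs (adjusted p = 0.0255). The medians of the receptor and ligand lists were 0.06 and -0.10 in viAPs and 0.08 and -0.01 in scAPs, beside -0.06 and 0.00 over all 19938 genes. Over their genes above 7 they were 0.40 and 0.37 in viAPs and 0.30 and 0.29 in scAPs, beside 0.31 and 0.18 over all genes above 7. Without SD viAP array 4, 19 of the 23 viAP calls in these lists were kept, 4 were lost (Fgf10, Rasa1, Sos1 and Ccnd1) and 3 were gained.

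**Figure D4:**
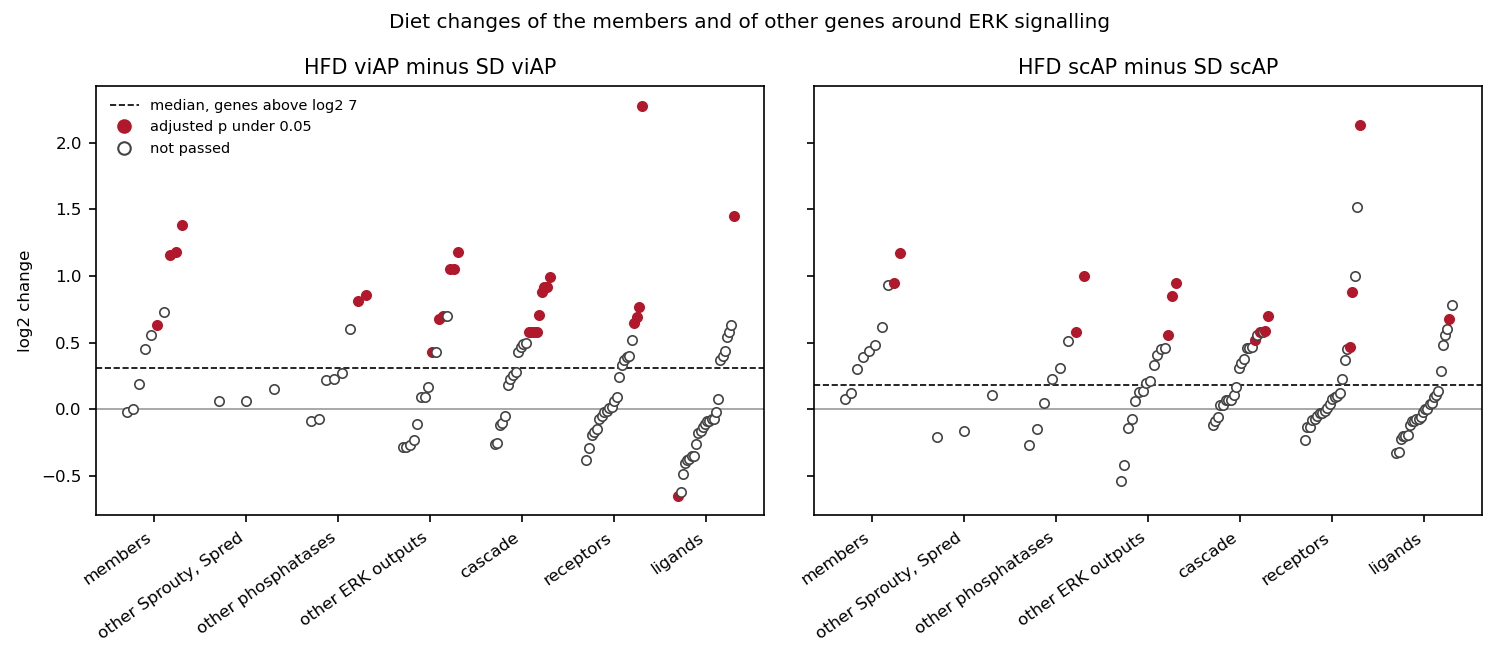
Diet change (log2, vertical axis) of the members and of each gene of 6 other lists in viAPs and scAPs, sorted by size within a list, with filled points at an adjusted p under 0.05. The dashed line is the median of the genes above a log2 level of 7 (0.31 in viAPs and 0.18 in scAPs), and Ret is the highest point in both depots.

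For each member, the genes whose levels followed it most closely over the 8 arrays were found by the root mean square difference of log2 levels centred on each gene's mean, among 6610 genes above 7 on at least 3 arrays. For Spry1 these were Heyl (0.161), Nop58 (0.163) and Lamb1 (0.164), against its own spread of 0.695. For Spry2 they were Mfap5 (0.0503), Frmd6 (0.0764) and Lamc1 (0.0839), for Spry4 Notch1 and Fscn1 (0.11 each) and Arhgef40 (0.119), and for Spred1 Setd5 (0.0567), Armcx2 (0.0663) and Rapgef2 (0.0718). The DUSP genes were nearest to Vcan (0.076), Itga5 (0.133) and Vcl (0.162) for Dusp6, to Ckap4 (0.0828), Elk4 (0.0847) and Ep400 (0.0997) for Dusp5, and to Angel2 (0.0385), Adam19 (0.0741) and Msi2 (0.0805) for Dusp4. Etv5 was nearest to Cd82 (0.089), Cyp2d22 (0.126) and Raph1 (0.131), Etv4 to Get4 (0.0685), Zfp618 (0.0757) and Hmgn1 (0.0768), and Phlda1 to Zfpm1 (0.0348), Gatd3a (0.0733) and Msi2 (0.0773). The nearest other member lay at 0.139 (Dusp4 and Phlda1) to 0.337 (Dusp6, from Spry1). These distances are not scaled by spread, and the own spread was 0.147 for Phlda1 and 0.194 for Dusp4, against 0.657 for Dusp6. A small distance between flat members therefore does not show that they moved together. All distances come from the same 8 arrays and carry the group levels and array differences they share.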

How the data were processed

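RNA of bead-purified APs was measured on 8 Affymetrix Mouse Gene 1.0 ST arrays, 2 per group, with groups taken from the labels. The authors deposited 1 whole-number intensity per probe set and array, made by RMA with quantile normalization. The submitters' notes name Affymetrix Expression Console 1.1, whereas the methods of the paper cite R, and how log values were returned to a linear scale is given in neither. Intensities were taken to log2 and not scaled again. Of 35556 probe sets, 21789 had 1 symbol and were tested, 1621 had several and 12146 none. No per-sample column was left unused.

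The 4 group means were estimated together from the 8 arrays (limma 3.58.1, R 4.3.3), variances were moderated over all probe sets (4 residual and 2.64 prior degrees of freedom), and the procedure was checked on simulated data of the same design. Adjusted p-values are those of Benjamini and Hochberg. The filter kept 3076 probe sets. Alternatives changed the filter, pseudocount (16), scaling, moderation, arrays fitted and the probe set of Etv5. Symbols of all 10 members matched RefSeq by Entrez ID. Figures used matplotlib 3.10.9 in Python 3.11.15.

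Named were every member, of each other list the genes that passed in a diet comparison (at most the 4 with the largest change per depot), and the 3 genes nearest to each member. Spry3, Spred2, Spred3, Dusp1, Fos, Egr1, Egr2, Egr3, Kdr and Flt1 were named after their values were seen. The members and lists were chosen with earlier results of these data known.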

Additional observations from a re-analysis of the deposited data

How the results depend on the processing

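No paired analysis was possible because the labels number the arrays 1 to 8 and no 2 groups share a number. The count of members that rose in viAPs, 4, was 2 without the filter, 3 with the level alone, after a second quantile normalization or with only the 4 arrays compared, 6 with arrays centred on their medians (Spry4 and Spred1 added), and ranged from 0 (without HFD viAP array 5) to 4 when single arrays were left out. The count in scAPs, 2, was 0 without the filter, 0 with a filter on the level alone, 0 after a second quantile normalization, 0 with only the 4 arrays compared (0% of the filter rose), 4 with centring (33.9% of the filter rose) and 0 to 5 with single arrays left out (0 without HFD viAP array 5 or 6 or HFD scAP array 7 or 8, where 7.76%, 6.83%, 0.0641% and 0% of the filter rose, 1 without SD scAP array 2, 4 without SD viAP array 3 and 5 without SD viAP array 4). For the mean of both depots, 6, single arrays left out gave 3 to 6, while centring and log2 of the intensity plus 16 gave 7 (Dusp4 added) and no filter 4. Between depots, where the count was 0, HFD viAPs against HFD scAPs gave 1 with only the 4 arrays compared (Spry2, 0.36, adjusted p = 0.0498), and SD viAPs against SD scAPs gave 0 to 1 with single arrays left out. The other pathway genes that rose in viAPs, 22, numbered 12 without the filter and 11 after the second quantile normalization. Those in scAPs, 13, numbered 0 without the filter, 5 with the level alone, 24 with centring and 4 after the second quantile normalization. That normalization lowered the filter's median change to 0.34 (viAPs) and 0.19 (scAPs). No setting let the test between the depots' changes pass, with 0 members each time. The mean of both depots and a moderation over filtered probe sets alone were chosen after seeing the data.

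Reversed signs were all of differences that had not passed. Etv4 in viAPs was 0.14 with centring and 0.13 after the second quantile normalization, Phlda1 was 0.12 in viAPs with centring and -0.11 for the mean of both depots after the second quantile normalization, and Spred1 in SD viAPs against SD scAPs was 0.01 after it. With single arrays left out, the ranges that crossed 0 were, in viAPs, -0.18 to 0.17 for Etv4 and -0.05 to 0.01 for Phlda1, in scAPs -0.17 to 0.33 for Etv4 and -0.11 to 0.34 for Etv5, and for the mean of both -0.09 to 0.16 for Etv4. For SD viAPs against SD scAPs they were -0.44 to 0.23 for Dusp5, -0.01 to 0.95 for Dusp6, -0.02 to 0.47 for Etv4, -0.29 to 0.53 for Etv5, -0.05 to 0.34 for Phlda1, -0.39 to 0.24 for Spred1, -0.10 to 0.59 for Spry1 and -0.47 to 0.08 for Spry2. For HFD viAPs against HFD scAPs they were -0.03 to 0.21 for Dusp5, -0.00 to 0.18 for Spred1 and -0.02 to 0.29 for Spry4. For the difference between depots they were -0.14 to 0.53 for Dusp5, -0.26 to 0.71 for Dusp6, -0.33 to 0.16 for Etv4, -0.15 to 0.48 for Spred1 and -0.14 to 0.55 for Spry1. The causes of these changes were not tested. Dusp4 and Etv4 lay near the array medians, where background limits what a difference can show. Etv5 was near them on some arrays (5.67 on SD viAP array 4). In HFD viAPs it was at 6.81 and 6.82, against medians of 5.58 and 5.61 on these arrays.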
